A study of Mus musculus with 5 samples.

Results

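KYN-2 and HAK-1B are human hepatoma cell lines, and the tumors compared here were grown from them in the livers of mice. Tumor endothelial cells (TECs), the cells that line tumor vessels, were taken from each tumor, and the comparison of KYN-2 TECs with HAK-1B TECs uses 2 of the 5 arrays of the study, 1 array a side. The lines were inoculated into the left liver lobe, the labels name no drug treatment, and the cells were enriched with magnetic beads against mouse CD31, so that the selection was for mouse endothelium. The labels give C57BL/6 as the strain of both hosts, whereas the study's methods name young female C57BL/6 and immunodeficient BALB/c nu/nu mice without saying which host carried which line. The labels do not say how many mice or tumors gave the RNA of an array. With 1 array a side no test was possible: a gene was described as higher or lower when its signals differed by 4-fold or more, and no p-value is given.

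Tumor vessels grow when hypoxic or stressed tissue releases vascular endothelial growth factor (VEGF) and related ligands, and the endothelial tip cells that lead a sprout switch on a set of secreted factors. In the liver the resting vessels are sinusoids, whose endothelium carries scavenger and lymphatic-like receptors such as Lyve1 and the Stab proteins. CD31 (Pecam1) is not restricted to endothelium, because platelets, neutrophils and monocytes carry it too, and a bead selection of a digested tumor can hold these cells as well as fragments of other tissue. Each array was therefore read for markers of the other cell types beside the endothelial genes.

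The arrays held 56605 mouse probes, of which 54.7% were well above background for KYN-2 TECs and 57.6% for HAK-1B TECs. A probe was kept when it was well above background on either array, which left 33764 probes and 22130 gene names, and a gene took its brightest kept probe. After quantile normalization of both arrays the log2 difference, KYN-2 TEC minus HAK-1B TEC throughout, had a median of -0.02 and an SD of 1.08 over all genes, and 77.7% of genes lay within 2-fold. Where a pair of log2 signals is given for a gene, the KYN-2 TEC value comes first, and a single value in parentheses after a gene is its log2 difference. In KYN-2 TECs 730 genes were higher by 4-fold or more, 3.30% of the genes kept, and 757 were lower, 3.42%. Any count of list members beyond 4-fold below, including none, is to be read beside these shares. Signals were lower overall on the KYN-2 TEC array, with a 75th percentile of 259.0 against 445.9 before normalization, whereas the 4 spike-in controls brighter than 100 were slightly higher there by a median of 0.17 on the log2 scale. All differences below are therefore relative to the distribution of all probes, and on the scale of the spike-in controls the median gene would be lower in KYN-2 TECs by 0.95. Only 360 of the higher and 207 of the lower genes were well above background on both arrays. For the others the dimmer array gives no level, and the fold is a lower limit set by the lowest signal well above background on that array (log2 3.72 for HAK-1B TECs and 4.11 for KYN-2 TECs) or by the dim probe's own signal where that was higher. The limit itself reached 4-fold for 121 of the 370 higher genes and 92 of the 550 lower genes of this kind. The threshold falls within a continuum: Mal lay just inside and Dlgap2 (1.999) just outside on the higher side, and Saa3 (-1.9995) just outside on the lower side.

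**Figure D1:**
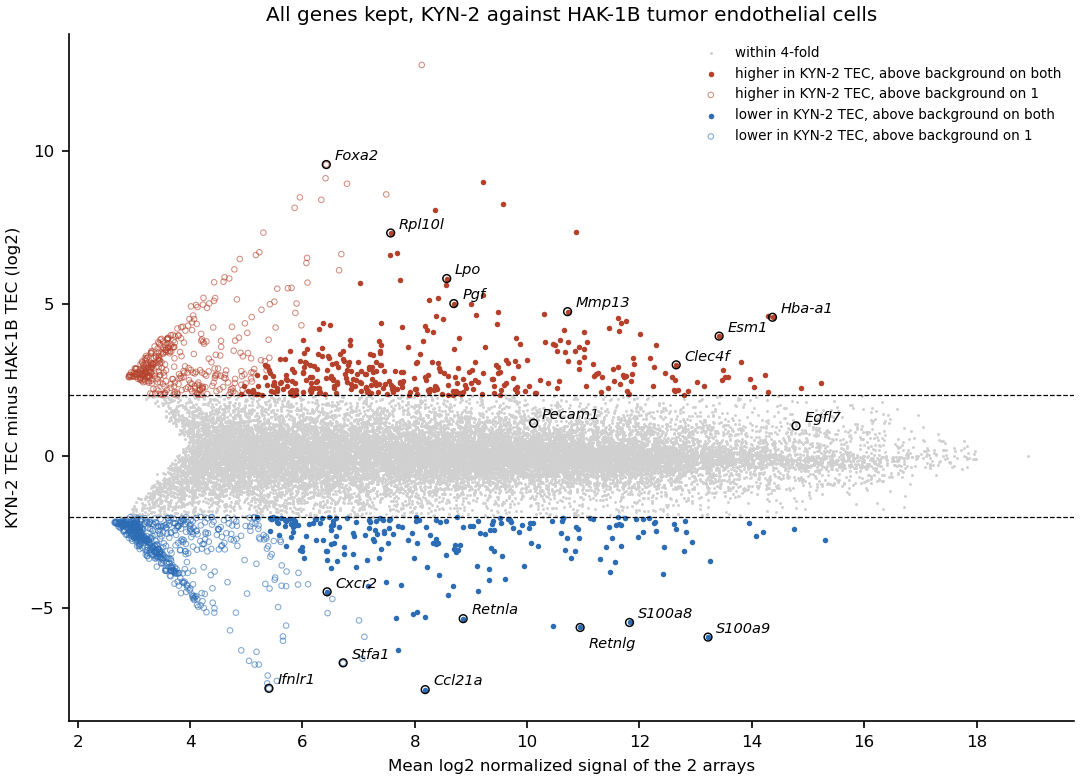
Each point is 1 of the 22130 genes kept, with the mean log2 normalized signal of both arrays on the x axis and the KYN-2 TEC minus HAK-1B TEC difference (log2) on the y axis; dashed lines mark 4-fold. Filled colored points were well above background on both arrays (360 higher, 207 lower), and open points on 1 array only, which crowd the dim left end.

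All 30 pan-endothelial markers were well above background on both arrays, as were all 30 macrophage and monocyte, all 12 Kupffer cell and all 15 B and plasma cell markers kept. Pecam1, the antigen of the selection, had a log2 signal of 10.65 in KYN-2 TECs and 9.58 in HAK-1B TECs. Cdh5, the cadherin of endothelial junctions, had 12.76 and 11.72, and the VEGF receptor gene Kdr had 12.67 and 12.21. Egfl7, a secreted endothelial factor and the brightest member of the list, here and below by the mean signal of both arrays, had 15.28 and 14.29. The list had a median difference of 0.95 with members from -0.10 (Tal1) to 1.63 (Myct1), against -0.02 for all genes, and 29 of the 30 lay above 0. None of the 30 was beyond 4-fold, against 3.30% of all genes higher and 3.42% lower. By the median, KYN-2 TECs carried a mildly higher endothelial signal across the list. The summed normalized signal of the list was 256164 in KYN-2 TECs and 131678 in HAK-1B TECs. In RNA from a mixed cell preparation, fewer cells of a type and less RNA per cell cannot be told apart, here or in any list below.

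Markers of liver sinusoidal endothelium were also present in both samples, with all 21 members on the array well above background on both. Their median difference was 0.88, and 17 of 21 lay above 0. Lyve1, a hyaluronan receptor of lymphatic and sinusoidal endothelium, had 12.84 in KYN-2 TECs and 10.72 in HAK-1B TECs, 4.34-fold higher. Rspo3, a Wnt enhancer of central vein endothelium, had 9.69 and 7.68, 4.04-fold higher, and its other probe gave 2.22. Other members lay on the opposite side: Fcgr2b, an inhibitory Fc receptor of sinusoids, had a difference of -1.02, and Cd209b, a C-type lectin, had -0.83. Sgk1, the brightest member, had 14.63 and 15.06. The list did not lean one way for every member, and no member was lower by 4-fold.

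Among the endothelial lists, genes of tip cells and tumor endothelium had the largest share of members higher by 4-fold or more. Of the 26 members kept, 5 were higher in KYN-2 TECs by 4-fold or more and none was lower, against 3.30% and 3.42% of all genes. Pgf, placental growth factor and a ligand of the VEGF receptor Flt1, had 11.20 in KYN-2 TECs and 6.20 in HAK-1B TECs, 32.0-fold higher. Apln, the ligand of the apelin receptor and a tip cell marker, had 12.73 and 8.59, 17.7-fold higher. Esm1, an endothelial proteoglycan also named endocan, had 15.38 and 11.45, 15.3-fold higher. Adm, the vasodilator peptide adrenomedullin, had 12.50 and 8.69, 14.1-fold higher, and Ankrd37, an ankyrin repeat gene known as a hypoxia target, had 12.46 and 9.38, 8.41-fold higher. Angpt2, the destabilizing ligand of the Tek receptor, fell just short of the threshold with 10.75 and 8.76. The other members did not form 1 block: the list median was 0.86, close to that of the pan-endothelial list, and Mmp14 (-1.63), Cd276 (-1.37) and Mcam (-0.82) were among 6 members below 0. The 5 genes were picked by the 4-fold threshold, so their place above the highest pan-endothelial member (1.63) was set by that choice. Angpt2, Unc5b (1.86), Nid2 (1.71) and Spry4 (1.92, not well above background in HAK-1B TECs) lay above that member too.

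Ligands and receptors of the VEGF, angiopoietin and Notch families had a median of 0.55 over 25 members kept. Vegfa, the main VEGF ligand, had 13.23 in KYN-2 TECs and 14.26 in HAK-1B TECs, a difference of -1.03, and its 4 probes ran from -1.03 to -0.10. Pgf was therefore the only ligand of the family beyond 4-fold that was measured on both arrays. Heyl, a Notch target, had 4.71 in KYN-2 TECs and was not well above background in HAK-1B TECs, at least 1.99-fold higher. Flt1 (1.52), Flt4 (1.80), Angpt1 (1.33) and Dll4 (1.51) were higher by less than 4-fold, while Notch2 (-0.86) and Notch1 (-0.67) were lower and Nrp2 had a difference of -0.89 at its brightest probe and up to 0.49 at others. Among 13 genes of arterial and capillary endothelium, Cd36, a fatty acid translocase, had 12.68 and 9.66, 8.13-fold higher, and Fabp4, a fatty acid binding protein of capillaries, had 15.16 and 12.90, 4.79-fold higher. Both of these handle fatty acids, and Gpihbp1 (1.99), which anchors lipoprotein lipase to capillaries, lay beside the threshold. Of 15 genes for leukocyte adhesion and veins, Sele, the cytokine-induced selectin, was 5.52-fold higher with 8.78 and 6.31, and Madcam1 was not well above background in KYN-2 TECs and at least 1.17-fold lower. For the endothelial mesenchymal transition list none of 19 members was beyond 4-fold and the median was 0.25.

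Hypoxia and glycolysis genes shared part of this pattern, with 31 of 36 members above 0 and a median of 0.85. Of the 3 members higher by 4-fold or more, against 3.30% of all genes, Adm and Ankrd37 also belong to the tip cell list, and P4ha2, a collagen prolyl hydroxylase subunit, had 12.26 in KYN-2 TECs and 8.82 in HAK-1B TECs, 10.8-fold higher. Glycolytic enzymes and transporters were higher by less, as for Ldha (17.25 and 16.42) and Slc2a1 (14.27 and 13.41). Car9, the carbonic anhydrase used as a hypoxia stain, had 9.05 and 8.91 and showed almost no difference. The integrated stress and unfolded protein response list had a similar shape, with a median of 0.99 over 29 members and 4 beyond 4-fold, all higher, against 3.30% of all genes. Vldlr, a lipoprotein receptor, had 10.05 and 6.26, 13.8-fold higher. Trib3, a pseudokinase induced by endoplasmic reticulum stress, had 12.29 and 8.63, 12.7-fold higher. Chac1, a glutathione-degrading enzyme, had 10.21 and 7.32, 7.39-fold higher, and Slc7a5, a large neutral amino acid transporter, had 7.69 and 5.15, 5.84-fold higher. Ddit3, the transcription factor CHOP, had 10.80 and 9.13 at its brighter probe and a difference of -0.04 at the other, and the chaperone gene Hspa5 had 15.97 and 15.11, while Slc7a11 (-0.86), a cystine transporter of the same list, lay on the other side.

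Promoter windows of these genes that held a match are shown. Both pathways are known to act through short motifs, ACGTG for the hypoxia-inducible factors and TGATGNAA for ATF4 and CHOP. Sequences are from RefSeq on GRCm38.p6 and cover the 250 bases before the start site, 5′ to 3′ on the gene's strand, with matches to the motif on either strand in capitals. Those of Ankrd37 (chr8:45999851-46000100, minus strand), P4ha2 (chr11:54100674-54100923, plus strand), Chac1 (chr2:119350992-119351241, plus strand) and 1 of the 2 Vldlr starts (chr19:27216770-27217019, plus strand) read as follows.
Ankrd37: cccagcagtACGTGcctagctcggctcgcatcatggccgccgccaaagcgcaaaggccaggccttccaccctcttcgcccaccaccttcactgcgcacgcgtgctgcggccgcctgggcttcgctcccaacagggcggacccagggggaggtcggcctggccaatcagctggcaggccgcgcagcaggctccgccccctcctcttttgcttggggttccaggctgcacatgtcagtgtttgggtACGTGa
P4ha2: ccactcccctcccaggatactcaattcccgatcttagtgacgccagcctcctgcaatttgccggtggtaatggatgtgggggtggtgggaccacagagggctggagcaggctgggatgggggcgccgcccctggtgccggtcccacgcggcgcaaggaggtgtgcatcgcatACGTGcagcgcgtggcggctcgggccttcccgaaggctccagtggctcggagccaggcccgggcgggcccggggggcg
Chac1: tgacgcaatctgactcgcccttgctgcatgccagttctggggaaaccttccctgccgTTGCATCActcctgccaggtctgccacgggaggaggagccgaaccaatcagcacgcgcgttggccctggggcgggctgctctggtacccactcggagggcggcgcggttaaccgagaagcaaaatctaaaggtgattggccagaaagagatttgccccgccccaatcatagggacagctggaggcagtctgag
Vldlr: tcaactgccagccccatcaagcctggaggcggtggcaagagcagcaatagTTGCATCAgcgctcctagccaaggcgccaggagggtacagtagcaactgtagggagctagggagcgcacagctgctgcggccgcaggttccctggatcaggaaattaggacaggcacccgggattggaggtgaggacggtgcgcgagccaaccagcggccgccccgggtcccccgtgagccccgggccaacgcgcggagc
Ankrd37 held ACGTG 241 and 6 bases before the start, and P4ha2 held it 78 bases before. The promoter of Adm held none in this window. ACGTG was found in 18 of 31 hypoxia list members with a promoter in the table (58.1%) and in 18.5% of all 27025 genes with a promoter there. It was found in 18.4% of the genes higher in KYN-2 TECs by 4-fold or more (72 of the 391 with a promoter) and in 13.6% of the lower genes (54 of 398). TGATGNAA lay 193 bases before the start of Chac1 and 200 before that of Vldlr, and was not in the windows of Trib3 or of the other Vldlr start. For Slc7a5 no promoter sequence was at hand. It was found in 7 of 28 members of the stress list beside 3.91% of all genes, 2.81% of the higher genes and 4.52% of the lower genes. A match is a description of the letters and not of binding.

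**Figure D2:**
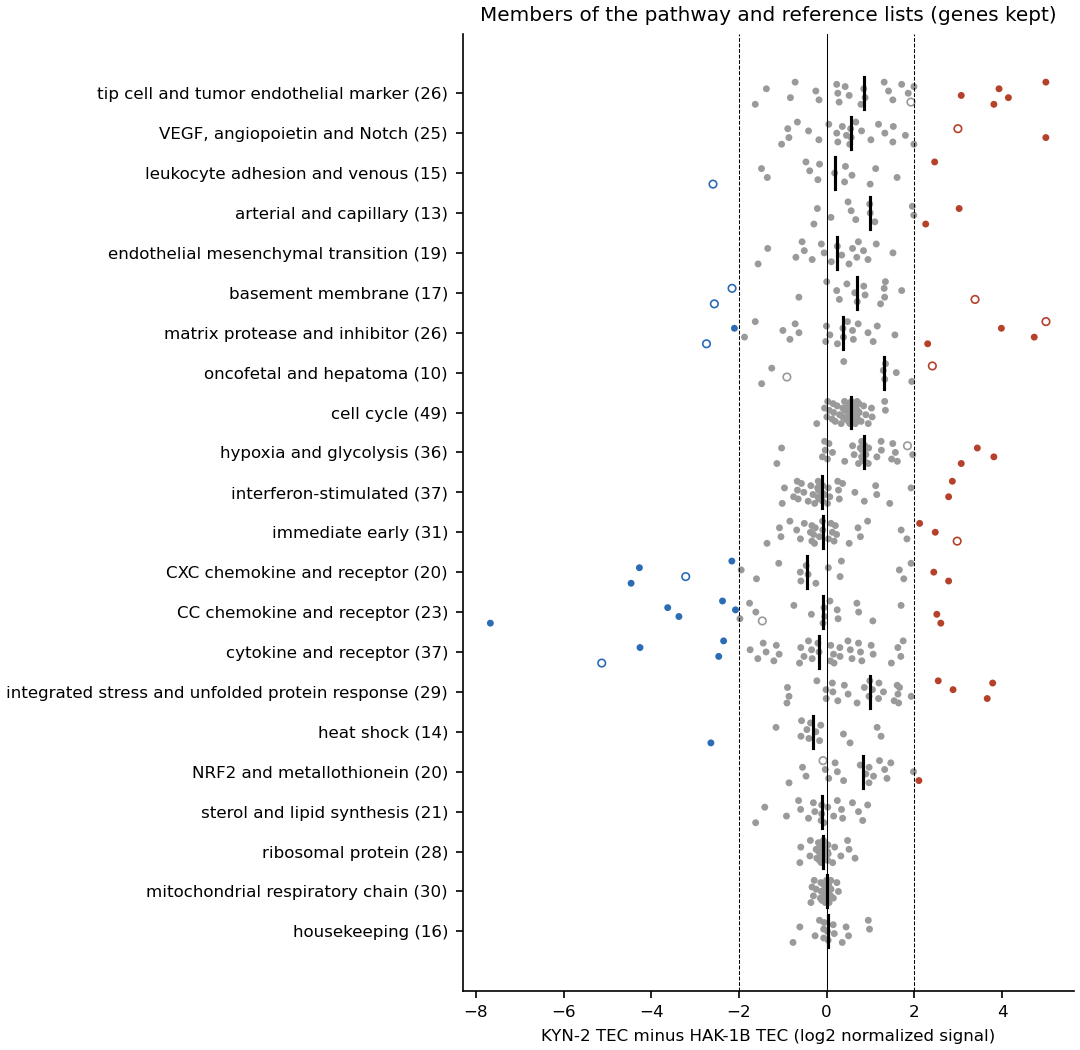
Each point is a gene of a pathway or reference list (number kept in brackets), placed at its KYN-2 TEC minus HAK-1B TEC log2 difference; black bars are list medians, dashed lines mark 4-fold and open points were well above background on 1 array only. Ribosomal, mitochondrial and housekeeping genes lie around 0, and the tip cell list has 5 points beyond 4-fold on the right led by Pgf.

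Neutrophil genes had the lowest median of the 38 lists. All 31 markers were well above background in HAK-1B TECs, 19 were lower in KYN-2 TECs by 4-fold or more against 3.42% of all genes, and the median difference was -3.13. S100a9, a subunit of calprotectin, had a log2 signal of 10.25 in KYN-2 TECs and 16.19 in HAK-1B TECs, 61.6-fold lower, and its probe lies at chr3:90496573-90496632 on mm9. Its partner S100a8 had 9.09 and 14.56, 44.2-fold lower. Retnlg, a resistin-like peptide of granulocytes, had 8.13 and 13.76, 49.5-fold lower. Ltf (lactoferrin) and Camp (cathelicidin), proteins of neutrophil granules, had 5.37 and 10.56, and 6.32 and 10.87. Cxcr2, the receptor that draws neutrophils along CXC chemokines, had 4.21 and 8.67, 22.0-fold lower. Cd101, a surface protein of mature neutrophils, and not a member of the list, was 40.0-fold lower, and the antimicrobial gene Wfdc21 had 5.48 and 10.60. Stfa1, Stfa2l1, Ngp, Cd177 and Ly6g were not well above background in KYN-2 TECs, with limits of at least 64.5-fold for Stfa1, 78.0-fold for Stfa2l1 and 42.2-fold for Ngp. The stefin genes Stfa1, Stfa2, Stfa2l1 and BC100530 are near-identical neighbors, so their probes may not be separate measurements. BC100530 had 4.53 and 10.88, 81.9-fold lower.

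Not every neutrophil marker followed. Csf3r, the receptor for granulocyte colony-stimulating factor and the brightest member, had 15.86 in KYN-2 TECs and 15.52 in HAK-1B TECs. Elane and Mpo, enzymes of the primary granules that immature granulocytes make, were slightly higher in KYN-2 TECs (10.13 and 8.83, and 11.69 and 10.82). Mmp8 (-0.02) and Mmp9 (0.08) lay near 0. The summed signal of the list was 103242 in KYN-2 TECs and 265424 in HAK-1B TECs.

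Several eosinophil and mast cell genes were lower too. Of 16 members, 7 were lower by 4-fold or more and none higher, against 3.42% and 3.30% of all genes, with a median of -1.52. With normexp background correction this median was -0.82. Epx (eosinophil peroxidase) had 5.45 and 8.85, 10.6-fold lower, and Prg2 (major basic protein) had 9.14 and 12.22, 8.49-fold lower. Cma1, a mast cell chymase, had 5.13 and 8.35, 9.30-fold lower. Tpsab1, a tryptase, was not well above background in KYN-2 TECs and at least 2.17-fold lower. The summed signal was 9695 in KYN-2 TECs and 12751 in HAK-1B TECs, and Ear2, the brightest member and a ribonuclease that macrophages also make, had 12.38 and 11.28. Il1rl1, the interleukin 33 receptor of mast cells and type 2 lymphocytes, had 5.03 and 9.29, 19.1-fold lower, while its other 2 probes were not well above background in KYN-2 TECs.

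Among myeloid cells the differences ran both ways. Macrophage and monocyte genes had a median of -0.48 over 30 members, with 4 lower and 1 higher by 4-fold or more, against 3.42% and 3.30% of all genes. Retnla, a resistin-like product of alternatively activated macrophages, had 6.19 and 11.53, 40.5-fold lower. Ccr2, the receptor that recruits monocytes, had 8.13 and 11.75, 12.3-fold lower. Chil3, a chitinase-like protein, was 7.94-fold lower, and Ms4a7 was 5.24-fold lower with both probes in accord. In the other direction Gpnmb, a glycoprotein of lipid-laden and lysosome-rich macrophages, had 13.56 and 9.34, 18.5-fold higher. Apoe, the brightest member, had 17.93 and 18.02, and the pan-macrophage genes Adgre1 (13.31 and 14.38) and Csf1r (16.08 and 17.38) were lower by less than 4-fold, so that the summed signal was 951194 in KYN-2 TECs and 1328243 in HAK-1B TECs. Kupffer cell genes, which mark the resident macrophages of the sinusoids, had a median of 1.38 over 12 members. Clec4f, a lectin of Kupffer cells, had 14.15 and 11.16, 7.95-fold higher. Slc40a1, the iron exporter ferroportin, had 13.41 and 10.38, 8.18-fold higher, and its second probe gave 1.88. Vsig4 (1.69), Timd4 (1.60) and Cd5l (1.73) lay on the same side, Marco (-0.48) and Xlr (-1.69) did not, and the summed signal was 209676 against 61557. Hmox1, the brightest member and a stress gene of many cells, had 16.96 and 14.98, but its 2 probes disagreed (1.98 and -1.30). Because Hmox1 made up most of both sums, the sums cannot be read for Kupffer cells alone.

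The dendritic cell and MHC class II list had a median of -1.18 over 18 members, 13 of them below 0 and 2, H2-Aa and Flt3, lower by 4-fold or more at their brightest probes, against 3.42% of all genes. H2-Aa had 10.90 and 12.96, 4.16-fold lower, and H2-Eb1, the brightest member, had 15.88 and 17.55. H2-Ab1, Cd74 (the invariant chain) and Ciita (the class II activator) were lower by 1.73, 1.54 and 1.71 on the log2 scale. Flt3, a receptor of dendritic cell precursors, was 4.43-fold lower at its brighter probe, but its other probe gave 3.45, so no direction is read from it. Summed signals were 220111 in KYN-2 TECs and 584964 in HAK-1B TECs. H2-Ea-ps, a class II gene listed because mouse strains differ in it, was 5.05-fold lower with 10.30 and 12.63. Foxn1, the gene mutated in nude mice, was not well above background on either array, and a dim probe does not give a host's genotype. The strain of the hosts was not tested.

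T and NK cell genes had a median of -0.18 over 26 members, with Gzma (6.57-fold) and Cd28 (4.25-fold) higher, Cd8b1 (6.21-fold) lower and Cd8a not well above background in KYN-2 TECs (at least 1.73-fold lower). Cd3g was not well above background in KYN-2 TECs either, while Cd3d and Cd3e were measured on both arrays. The brightest member, Cd247, had 10.90 and 10.45, and summed signals were 12818 and 10754. B and plasma cell genes had a median of -0.18 over 15 members with none beyond 4-fold. Xbp1, the brightest and also a secretory stress gene, had 14.57 and 13.60, and summed signals were 33422 and 23581. Xbp1 made up most of both sums, which ran the other way from the median.

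Erythroid and platelet genes were higher in KYN-2 TECs, with all 15 members kept above 0, 12 of them by 4-fold or more against 3.30% of all genes, and a median of 2.33. Hba-a1, an alpha globin, had 16.64 in KYN-2 TECs and 12.09 in HAK-1B TECs, 23.5-fold higher. Hbb-b2, a beta globin, had 13.90 and 9.35, 23.3-fold higher, and Hbb-b1 was 31.5-fold higher. Hba-a1 and Hba-a2, at chr11:32184427-32184486 and chr11:32197245-32197304 on mm9, are near-identical copies and cannot be separated with certainty, and the same holds for the beta globins. Alas2, the heme synthesis enzyme of red cell precursors, had 9.59 and 5.21, 20.8-fold higher. Platelet genes differed less: Gp1ba, a subunit of the von Willebrand factor receptor, had 7.42 and 4.84, 5.97-fold higher, Gp9 had 10.75 and 8.42, 5.02-fold higher, and Pf4, the brightest of the list, had 16.60 and 14.94, 3.16-fold higher. Slc4a1, the red cell anion exchanger, was not well above background in HAK-1B TECs, and Ahsp and Epb4.2 were not on either array. The summed signal was 340965 in KYN-2 TECs and 42944 in HAK-1B TECs.

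**Figure D3:**
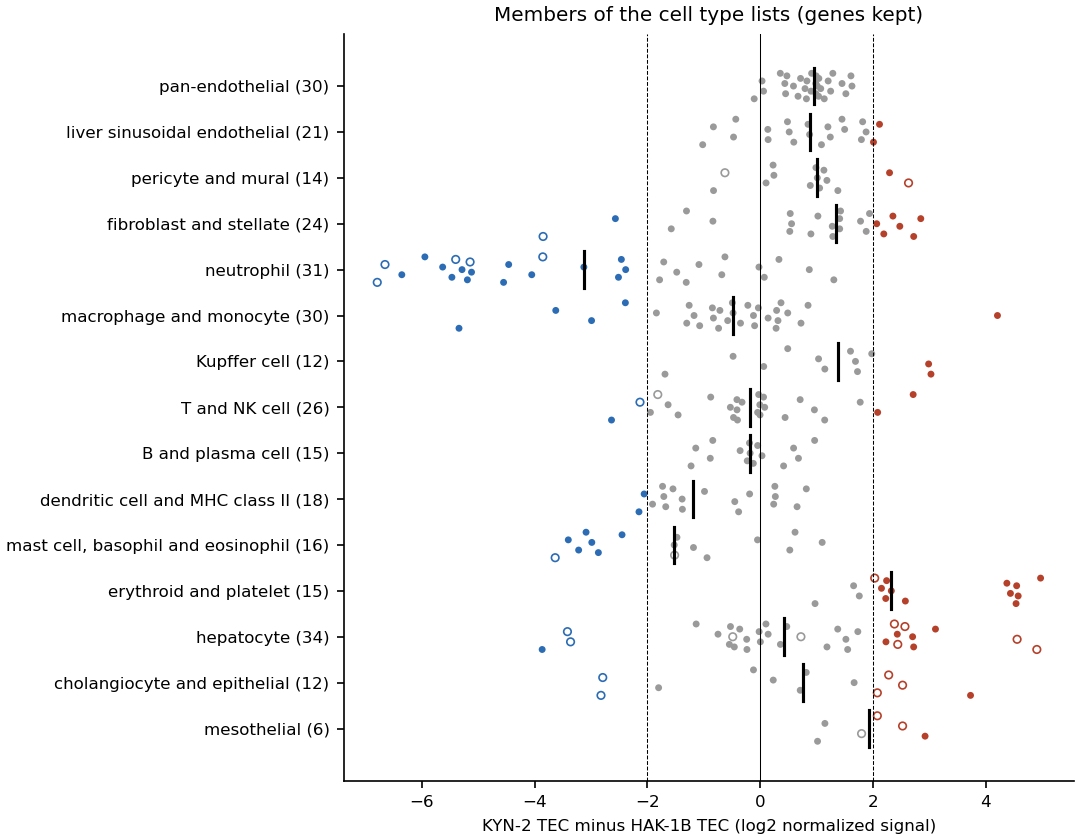
Each point is a marker gene of a cell type list (number kept in brackets), placed at its KYN-2 TEC minus HAK-1B TEC log2 difference; black bars are list medians, dashed lines mark 4-fold and open points were well above background on 1 array only. All 30 pan-endothelial markers lie within 4-fold, 19 of 31 neutrophil markers lie beyond it on the left and 12 of 15 erythroid and platelet markers on the right.

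Most stromal genes lay above 0. Fibroblast and stellate cell genes had a median of 1.35 over 24 members, with 6 higher and 2 lower by 4-fold or more, against 3.30% and 3.42% of all genes. With normexp background correction the fibroblast median was 0.78. The collagens Col1a1 (4.20-fold) and Col6a3 (5.58-fold), the collagen cross-linking oxidase Loxl2 (6.62-fold) and the matrix protein Fbln2 (5.12-fold) were higher, whereas Fap, a protease of activated fibroblasts, had 6.33 and 8.89, 5.92-fold lower at its brighter probe. The other Col6a3 probe gave a log2 difference of 1.47. Fbln1 was 7.22-fold higher at its brightest probe. Its other 2 probes, each well above background on 1 array only, gave -1.02 and 0.85, so its probes disagreed. Mfap5 was not well above background in KYN-2 TECs, at least 2.96-fold lower. Sparc, the brightest member, had 17.32 and 16.79, and summed signals were 192700 and 125711. Pericyte and mural cell genes had a median of 1.00 over 14 members. Rgs5, a pericyte regulator of G protein signaling, was 4.92-fold higher with 7.71 and 5.42, and Cnn1, a smooth muscle calponin, was at least 4.43-fold higher. Mcam, the brightest member and also an endothelial gene, had 14.53 and 15.36, and summed signals were 52533 and 62588, opposite in direction to the median.

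Proteases of the matrix showed large differences in a few members. Mmp13, a collagenase, had 13.09 in KYN-2 TECs and 8.35 in HAK-1B TECs, 26.7-fold higher. Mmp12, the macrophage elastase, had 14.01 and 10.02, 15.9-fold higher at its brightest probe and as high or higher at its other 2. Mmp10, a stromelysin, had 8.40 in KYN-2 TECs and was not well above background in HAK-1B TECs, at least 25.7-fold higher, and Ctsk, cathepsin K, was 4.95-fold higher. Mmp2, a gelatinase, was 4.30-fold lower, and Mmp25, a neutrophil protease, was at least 5.97-fold lower. The list as a whole had a median of 0.38 over 26 members. Basement membrane genes had a median of 0.70 over 17 members, and all 3 beyond 4-fold (Lama2 higher, Lamb3 and Col15a1 lower, against 3.30% and 3.42% of all genes) were well above background on 1 array only, with limits of at least 7.35-fold, 1.23-fold and 2.62-fold. The other Lama2 probe gave a log2 difference of 0.79.

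Chemokines split by gene. Ccl21a, the lymphatic chemokine that draws cells carrying Ccr7, showed the largest measured difference of any gene with a symbol, with 4.35 in KYN-2 TECs and 12.02 in HAK-1B TECs, 204-fold lower, at chr4:42231835-42231894 on mm9, where near-identical copies of Ccl21 exist. Cxcl13, the B cell chemokine, had 6.55 and 10.82, 19.3-fold lower, and Ccl8 had 9.61 and 12.98, 10.3-fold lower. The monocyte chemokines Ccl2 (15.22 and 12.71, 5.72-fold) and Ccl7 (13.88 and 11.27, 6.09-fold) were higher, on the array where their receptor gene Ccr2 was lower. Cxcl12 was 5.44-fold higher at its brightest probe and 0.95 higher at its other, and Cxcl9 was 6.89-fold higher. Cxcr3 (4.47-fold) and Ccr6 (5.18-fold) were lower, and Cxcr1 was at least 1.87-fold lower. Over both chemokine lists medians were -0.44 for 20 CXC genes and -0.08 for 23 CC genes, so that neither family shifted as a block. Of 37 cytokines and receptors, with a median of -0.17, 4 were lower by 4-fold or more, against 3.42% of all genes: Il1rl1, the decoy receptor Il1r2 (5.50-fold), Il12b (5.09-fold) and Il1f9 (at least 6.72-fold).

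Interferon-stimulated genes had a median of -0.11 over 37 members, beside -0.02 for all genes. Only Iigp1, an interferon-inducible GTPase, and Cxcl9 were beyond 4-fold, both higher, against 3.30% of all genes, with Iigp1 7.30-fold higher and alike at its 2 probes. Immediate early genes had a median of -0.09 over 31 members. Ctgf (5.58-fold) and Cyr61 (4.35-fold), matricellular genes, were higher, as was Egr4 by at least 2.10-fold, while Fos (0.04), Jun (0.17) and Atf3 (0.13), which mark handling stress, lay near 0. Heat shock genes had a median of -0.30 over 14 members with Hspb8 6.23-fold lower. NRF2 and metallothionein genes had a median of 0.83 over 20 members, with Gclm, a subunit of the glutathione synthesis enzyme, 4.30-fold higher. Cell cycle genes were higher by a small amount in nearly all members, 47 of 49 above 0 with a median of 0.56 and none beyond 4-fold, and Pcna had 13.89 and 13.32. Sterol and lipid synthesis genes had a median of -0.11 over 21 members and none beyond 4-fold. Ribosomal protein, mitochondrial and housekeeping genes had medians of -0.08, 0.00 and 0.03 with none beyond 4-fold.

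Hepatocyte genes differed in both directions. Of 34 members kept, 25 were well above background on both arrays, 10 were higher and 3 lower by 4-fold or more, against 3.30% and 3.42% of all genes, and the median was 0.42. Apoa2, an apolipoprotein, had 12.58 in KYN-2 TECs and 9.87 in HAK-1B TECs, 6.53-fold higher, and Alb, albumin, had 8.51 and 6.07, 5.41-fold higher. Vtn (8.65-fold) and Rbp4 (6.61-fold) were higher too, and Apob and Cyp2c29 were not well above background in HAK-1B TECs, at least 12.7-fold and 6.76-fold higher. Apoa1, Hpd, Serpina3k and Ttr were not well above background in HAK-1B TECs either, and Car3, F9 and Mup1 were not in KYN-2 TECs (at least 5.93-fold lower for F9 and 1.96-fold for Mup1). Hp, haptoglobin, which neutrophils also store, had 10.49 and 14.35, 14.6-fold lower. Trf, the brightest member, had 15.96 and 16.42, and summed signals were 80074 and 116644. Trf made up most of both sums, which ran the other way from the median.

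Epithelial genes were uneven. Krt18, a keratin of simple epithelia and hepatoma cells, had 12.18 in KYN-2 TECs and 8.45 in HAK-1B TECs, 13.3-fold higher, and its partner Krt8 had 8.05 and 6.38. Krt19, Krt7 and Cldn4 were not well above background in HAK-1B TECs, at least 5.11-fold, 2.13-fold and 2.21-fold higher, and Cdh1 was not in KYN-2 TECs, at least 6.85-fold lower. The defining markers Epcam and Cftr were not well above background on either array. The brightest member Spp1, which is also in the macrophage and monocyte list, had 15.59 and 15.71. Summed signals were 54588 and 54365, but Spp1 made up most of both, so they say little of the other epithelial genes. Of 6 mesothelial genes, with summed signals of 536 and 129 and a median of 1.94, Msln, the brightest, was 7.61-fold higher. With normexp background correction the mesothelial median was 0.48. Among 10 oncofetal genes with a median of 1.31, Igf2bp1 was at least 1.89-fold higher and Afp, alpha-fetoprotein, had 7.70 and 5.75. The brightest of these, Cd24a, was lower by 1.25 on the log2 scale and Gpc3 (-1.48) lower too, and summed signals ran the other way from the median, with 3443 and 5061. The oncofetal median was 0.48 with normexp background correction. The tumor cells were human and the probes were designed on mouse transcripts, and how far these probes took up human RNA was not tested.

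**Figure D4:**
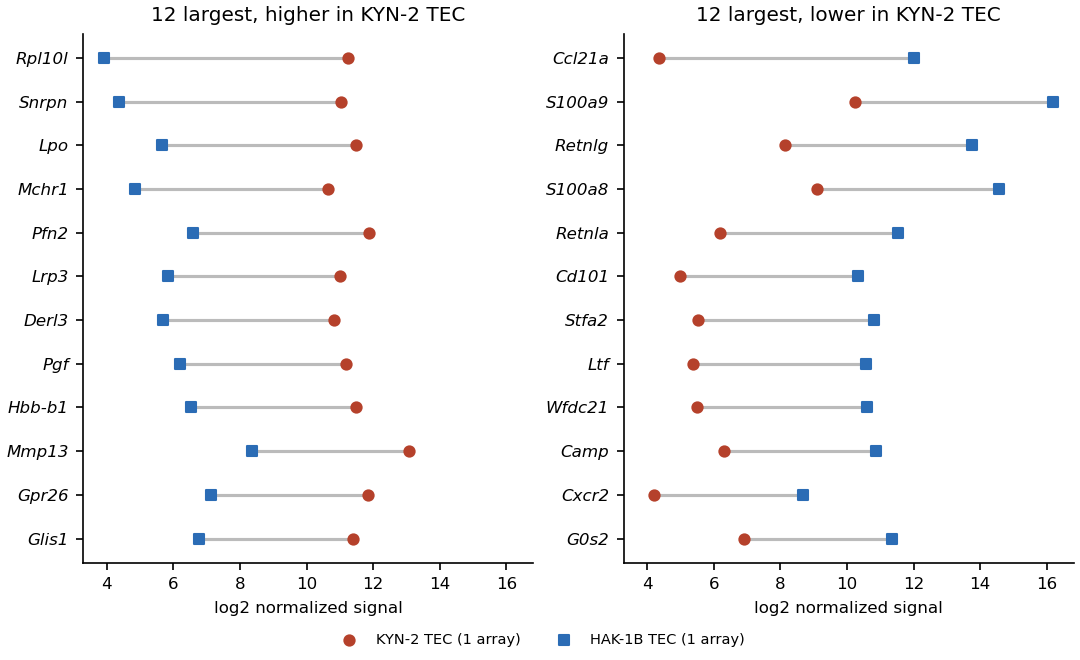
The log2 normalized signal on the KYN-2 TEC array (circles) and the HAK-1B TEC array (squares) is plotted for the 12 genes with the largest differences each way among genes with a symbol other than an accession-like name (BC100530 is one such) that were well above background on both arrays. On the right, 8 of the 12 genes are in the neutrophil list, and on the left Rpl10l spans 3.91 to 11.23.

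The largest measured differences on the higher side fell mostly outside the lists. Rpl10l, an intronless ribosomal protein gene expressed in testis, had 11.23 in KYN-2 TECs and 3.91 in HAK-1B TECs, 160-fold higher, although the 28 ribosomal protein genes kept had a median of -0.08. Snrpn, an imprinted splicing gene, had 11.02 and 4.37 at 1 probe, 101-fold higher, and only 1.26 at its other probe. Lpo (lactoperoxidase) was 56.6-fold higher and Mchr1, a receptor for melanin-concentrating hormone, 55.1-fold higher. Pfn2, a profilin, had 11.86 and 6.58, 38.9-fold higher, Lrp3 was 36.1-fold higher with both probes beyond 4-fold, and Derl3, a factor of protein degradation at the endoplasmic reticulum, was 35.1-fold higher. Gpr26, an orphan receptor, had 26.2-fold at 1 probe and 1.05 on the log2 scale at the other, and Glis1, a zinc finger factor, was 24.5-fold higher. On the lower side Stfa2, G0s2 and the neutrophil and macrophage genes above made up the list beside Ccl21a.

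Genes well above background on 1 array only are given by their lower limits. Foxa2, a transcription factor of liver and endoderm at chr2:147868669-147868728 on mm9, had 11.21 in KYN-2 TECs and was not well above background in HAK-1B TECs, at least 180-fold higher. Smarca1, a chromatin remodeler, was at least 113-fold higher, with all 3 of its probes beyond 4-fold. Habp2, a plasma protease made by hepatocytes, was at least 89.5-fold higher and Ces1d, a carboxylesterase, at least 74.5-fold. Grb7, an adaptor of receptor tyrosine kinases, was at least 63.4-fold higher, Clip4 at least 46.0-fold and Gtsf1 at least 37.3-fold. Map2, a neuronal microtubule protein, was at least 38.2-fold higher at its brightest probe, while its other probe ran the opposite way, well above background in HAK-1B TECs only, so no direction is read from it. In the opposite direction Ifnlr1, a subunit of the interferon lambda receptor, was at least 34.5-fold lower, Amy2a5, an amylase, at least 34.9-fold with both probes in accord, and Adamts8, an antiangiogenic metalloprotease, at least 31.9-fold. Asprv1, a protease, and Chil1, a chitinase-like protein, were at least 30.2-fold and 23.9-fold lower.

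These genes were also read on the arrays of TECs from Hepa1-6 tumors, grown from a mouse hepatoma line, and of cultured Hepa1-6 cells, normalized together over the 5 arrays. Foxa2 had 12.07 in Hepa1-6 TECs and 13.08 in Hepa1-6 cells, Grb7 had 12.41 and 12.74, and Habp2 had 8.09 and 8.39. Smarca1 and Ces1d were not well above background on either of these arrays. Of the 8 genes with the largest limits on the higher side, 4 were well above background in the cultured hepatoma cells. Of the 8 on the lower side 1 was, Ifnlr1 with 9.45. In these cells 44.6% of all 56605 probes, kept or not, were well above background, and the share among the genes kept was not computed. Of the 12 largest measured genes, 6 on the higher side and 1 on the lower side were well above background in these cells. S100a9 had 14.05 in Hepa1-6 TECs on this scale, between 16.46 in HAK-1B TECs and 10.61 in KYN-2 TECs, and Pgf had 7.21, near the 6.62 of HAK-1B TECs and far from the 11.54 of KYN-2 TECs. The part that RNA of tumor cells took in these differences was not tested.

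**Figure D5:**
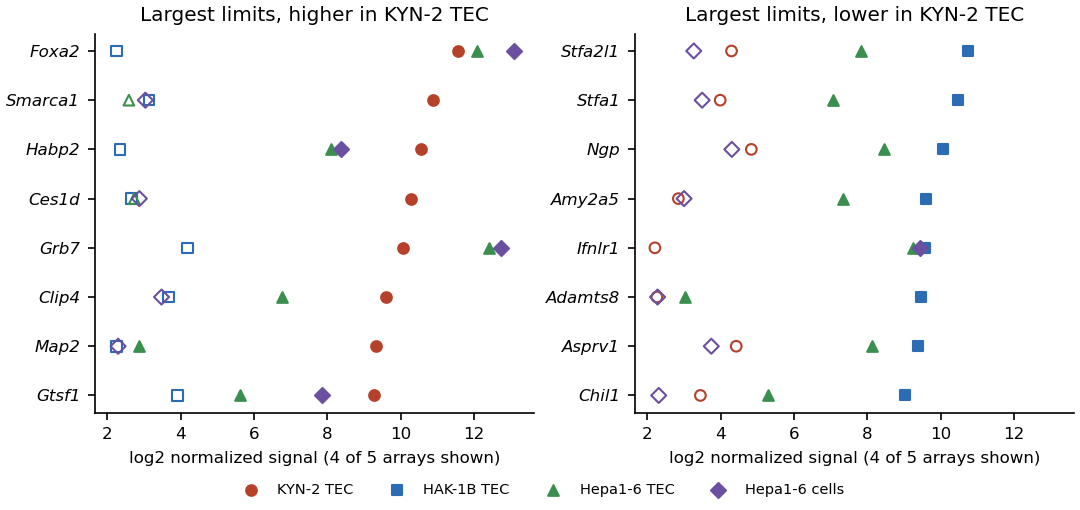
The log2 signal, quantile normalized over 5 arrays, of the 8 genes each way with the largest limits is plotted for KYN-2 TECs, HAK-1B TECs, Hepa1-6 TECs and cultured Hepa1-6 cells (1 array each); open symbols were not well above background. Foxa2, Habp2, Grb7 and Gtsf1 are filled for the Hepa1-6 cells on the left, and of the genes on the right only Ifnlr1 is. On the Hepa1-6 TEC array 78.1% of probes were well above background, and Map2 (2.87) and Adamts8 (3.04) are filled there at low signals.

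Of the 1487 genes beyond 4-fold, 1292 rested on 1 kept probe. Of the 195 with several kept probes, all probes had the same sign for 163 and passed 4-fold for 98. Differences between probes of 1 gene, both well above background on both arrays, had an SD of 0.48 on the log2 scale over 6746 genes, while spots of the 300 repeated probes had a median coefficient of variation of 2.70% for KYN-2 TECs and 2.73% for HAK-1B TECs. Neither measures the variation between tumors.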

How the data were processed

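Total RNA was amplified, labeled with Cy3 and hybridized to an Agilent oligonucleotide mouse array, 1 color per array. Per the labels, Agilent Feature Extraction 9.5.1.1 was used, although the file headers carry module version 10.7.1.1. The deposited scanner files hold each spot's intensity, background-subtracted by the authors (gProcessedSignal), with flags. The authors also deposited a table of quantile-normalized intensity values on a linear scale. The methods describe quantile normalization of a pair of samples without naming them. Which arrays stand behind the deposited table is not given in the sources used here. The methods name Huh-7 among the hosts' tumor lines for these arrays where the labels give HAK1B, and the labels were followed. Both arrays lay on the same slide.

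Here the mean intensity per probe was taken over spots that are not controls, log2-transformed and quantile normalized over the 2 arrays (Python 3.11.15, numpy 2.4.6, pandas 2.3.3). A probe counted as well above background when at least 0.5 of its spots carried the flag, and a gene took its kept probe with the highest mean signal. Normalization and the 4-fold call were tested on simulated data in which only brighter probes were changed and each probe was its own gene. The choice of a probe per gene, the lower limits and the calls of dim genes were not covered by it. Names are those of the array's design, updated for lists through RefSeq synonyms, and probe positions are on mm9. Named genes were the 12 largest differences each way measured on both arrays among genes whose name is not a clone, locus or accession name, the 8 largest limits each way, up to 4 per list each way, the brightest marker of each cell type list, and genes selected or stained in the study; Tal1, Myct1 and other list members named with a value were added after their values were seen. The 38 lists and the comparison were chosen with earlier results of these data known. Alternatives included 75th percentile scaling, normexp background correction with an offset of 50 (limma 3.58.1, R 4.3.3), normalization over 5 arrays, the deposited table, other filters and other probe rules. The array of sinusoidal endothelium gave no value printed here and only entered the normalization over 5 arrays. Values of a few list members are not reported here.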

Additional observations from a re-analysis of the deposited data

How the results depend on the processing

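No paired analysis was possible because each group had 1 array, and no array could be left out. The main counts were 730 higher and 757 lower genes beyond 4-fold, 49.1% of them higher. With genes well above background on both arrays they were 360 and 207 (63.5% higher), with dim signals raised to the lowest signal well above background 485 and 303 (61.5%), and with normexp correction, whose offset compresses low signals, 205 and 133 (60.7%). Of the normexp counts, 202 and 130 were genes called before. The share higher was 53.4% with 75th percentile scaling, 51.8% with normalization over 5 arrays, 51.7% in the deposited table and 54.0% without a background filter. A 2-fold threshold gave 2489 and 2442, and an 8-fold threshold 274 and 247 (52.6%). Scaling to the spike-in controls, chosen after seeing the data, gave 330 and 2170 (13.2% higher) and moved the median of all genes to -0.95. The methods' rule gave 586 and 613.

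Of 304 list medians recomputed under 8 alternatives, 294 moved by less than the SD between probes of a gene. No list with a main median of at least 0.1 in size changed sign. With 75th percentile scaling the ribosomal protein median went from -0.08 to 0.15 and the immediate early median from -0.09 to 0.10. With normexp correction the medians were 0.78 for fibroblast, -2.31 for neutrophil, -0.82 for mast cell and eosinophil, 1.76 for erythroid and platelet, 0.48 for mesothelial and 0.48 for oncofetal genes. With genes above background on both arrays they were -2.42 for neutrophil and 1.15 for mesothelial genes, and with raised dim signals -2.51 and 1.12. Of 127 named genes beyond 4-fold, 84 stayed beyond it under every one of the 8 that gave a value for the gene, and Flt3 changed sign to 0.65 with the median over its probes. Values of named genes moved by more than the SD between probes in 151 of 1144 cases, 80 of them among the 148 genes with normexp correction. At 1 array a side the spread between tumors is unknown, and signals near background limit what can be read for the dim genes.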
